A study of Mus musculus with 18 samples.

Results

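Replication-dependent histone genes encode the histones that package newly made DNA. They were taken here as the gene symbols that begin with Hist1h, Hist2h, Hist3h or Hist4h and that had a summed count of at least 20 over the 12 RNA-seq libraries of a mouse leukemia series. The pattern matched 70 symbols, 59 of which reached the minimum, out of 53946 genes in the deposited table. The members comprise 6 genes of the H1 class, 14 of H2A, 17 of H2B, 10 of H3 and 12 of H4. Of the 11 symbols that did not reach the minimum, 7 had no count in any library. The members nearest the minimum were Hist1h1t with 29 counts and Hist1h2br with 42, and the symbols just below it were Hist1h2af with 17 and Hist1h4b with 6. A further filter on low counts left 56 members for testing and removed Hist1h1t, Hist1h2br and Hist1h2aj. The minimum and this filter keep genes that were high in at least 1 group, so counts and medians below are over the members tested, not over the family.

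Histone RNA of this family is made in bulk while DNA is replicated. The genes lack introns and stand in clusters, and their transcripts end in a short stem-loop in place of a poly(A) tail. The stem-loop binding protein, encoded by Slbp, together with the U7 small nuclear ribonucleoprotein, forms this end, and the coactivator NPAT, activated by cyclin E with CDK2, drives transcription. A few of the genes also give polyadenylated transcripts in cells that differentiate or leave the cell cycle. A library that selects poly(A) RNA would catch the stem-loop transcripts poorly, and the RNA selection behind these libraries was not given in the sources used here.

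The AML libraries came from C-Kit+ cells of the spleens of NHD13/Setd2 KO mice at the leukemia stage. The KO libraries came from bone marrow hematopoietic stem and progenitor cells (HSPCs) of NHD13/Setd2 KO mice, the NHD13 libraries from HSPCs of NHD13/Setd2 flox/flox mice, and the WT libraries from HSPCs of C57BL/6 mice. NHD13 is a NUP98-HOXD13 fusion transgene, which models a myelodysplastic syndrome that can turn into leukemia and is carried by the AML, KO and NHD13 groups. The enzyme made from Setd2 places 3 methyl groups on lysine 36 of histone H3 (H3K36me3), and the design text names Mx1-Cre, an interferon-inducible deleter active in blood cells and other tissues, as the means of deletion. Strain was C57BL/6 in all groups, ages are not given, and there were 3 libraries per group. AML and KO differ in tissue, in the sorted cells and in disease stage, and these cannot be told apart. H3K36me3 ChIP-seq was made from C-Kit+ spleen cells at the leukemia stage, with 1 library labelled NHD13/Setd2 KO and 1 labelled NHD13, and whole-genome bisulfite sequencing from 1 library of each of the 4 groups.

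Total counts ran from 18673704 to 20577958 in AML, from 20436804 to 28127686 in KO, from 22243002 to 24766705 in NHD13 and from 22115101 to 23767776 in WT. Setd2 itself had 183 ± 4.14 CPM in AML and 32.4 ± 2.91 in KO, against 33.5 ± 1.72 in NHD13 and 42.1 ± 4.33 in WT (mean ± SD, n = 3 each). The exons deleted were not given in the sources used here. Whole-gene counts therefore do not check the labels, and AML and KO below mean the libraries so labelled. Xist was near 0 in AML and KO, at 0.0142 and 0.0636 CPM on average, and stood at 94.8 CPM in NHD13 and 174 CPM in WT. The Y-linked Eif2s3y had 68.4 CPM in AML and 59.9 CPM in KO, against 0.0165 CPM in NHD13 and 0 in WT. Sex and the KO label therefore cannot be told apart between KO and NHD13. The 7 progenitor markers summed to 620 to 635 CPM in AML, 561 to 599 in KO, 216 to 247 in NHD13 and 1003 to 1057 in WT, with none at 0. The 8 neutrophil markers summed to 22845 to 23265 CPM in AML, 52183 to 55779 in KO, 136846 to 158048 in NHD13 and 26278 to 29902 in WT. By sum, neutrophil markers were thus highest, and progenitor markers lowest, in the NHD13 libraries. Between AML and KO single markers went both ways by the edgeR test used below. Of the neutrophil markers 5 were higher and 3 lower in AML (median log2 fold change 0.78). Of the progenitor markers 4 were higher and 3 lower (median 0.60). Kit, which marks the sorted AML cells, had 215 ± 2.98 CPM in AML, 101 ± 5.28 in KO, 73.6 ± 3.63 in NHD13 and 100.5 ± 1.6 in WT.

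Histone RNA was far lower in AML than in the other 3 groups. CPM here means counts scaled to the library's total over the tested genes times its TMM factor. The 59 members summed to 181, 183 and 175 CPM in the 3 AML libraries, 1137, 945 and 1179 in KO, 790, 1063 and 918 in NHD13 and 914, 1205 and 1143 in WT. The 3 AML libraries lay close together and below every other library, while the KO, NHD13 and WT ranges overlapped. The mean was 6.05-fold lower in AML than in KO, at 179.6 ± 4.35 against 1087 ± 125 CPM (SD, n = 3 each). As shares of all counts the members were 0.0218% to 0.0224% in AML, 0.0883% to 0.109% in KO, 0.0658% to 0.0848% in NHD13 and 0.0995% to 0.127% in WT. In bulk libraries, fewer cells that make a transcript and less of it per cell cannot be told apart.

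**Figure D1:**
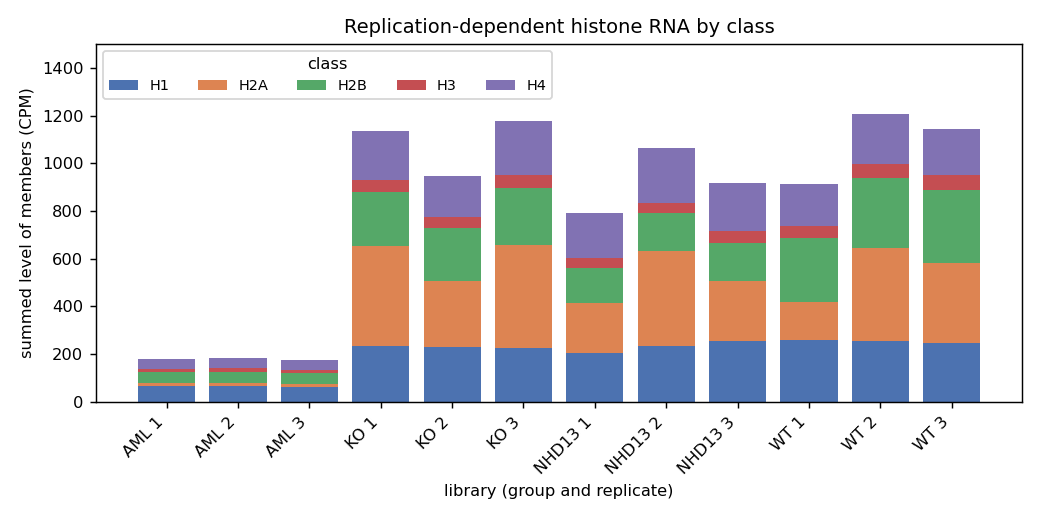
Summed level of the members in CPM (y axis) in each of the 12 libraries (x axis), stacked by histone class. The 3 AML libraries reach 175 to 183 CPM, and the lowest of the other 9 reaches 790 CPM.

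The loss was steepest for H2A RNA. The H2A members summed to 11.4, 11.2 and 10.7 CPM in AML and 419.6, 275 and 434 in KO, a 33.9-fold difference of the means. Hist1h2ae and Hist1h2ao made up most of the KO mean of 376 CPM, at 196 and 115 CPM. In AML their means were 0.638 and 0.208 CPM, so the fold of the H2A sum rests largely on them. H2B sums were 47.3, 48.4 and 47.7 CPM in AML against 229, 222 and 238 in KO, and H4 sums 41, 42.5 and 39.3 against 207, 169 and 227. By sum, the smallest differences were in the linker histones of the H1 class and in H3. Their sums were 66.2, 66 and 64.4 CPM in AML against 232, 232 and 225 in KO for H1, and 14.6, 15.2 and 12.7 against 49, 47 and 55 for H3, which are 3.51-fold and 3.55-fold differences. In summed FPKM, which takes account of length, H2A was the largest class in KO at 578 and the smallest in AML at 12.2, and H4 was the largest in AML at 75.4.

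The same few genes carried most of the histone RNA in KO, NHD13 and WT, and a smaller share of it in AML. Per length, in deposited FPKM averaged over a group, Hist1h2ae led in KO at 258, followed by Hist1h2ao at 222, Hist1h4d at 119, Hist1h2bc at 104, Hist1h1c at 61.9 and Hist1h2bg at 53.1. In AML the order was another: Hist1h4i led at 41.5, followed by Hist1h1c at 38.9 and Hist1h2bc at 19.5, while Hist1h2ae was at 1.12 and Hist1h2ao at 0.534. The 6 members with the highest mean CPM over all 12 libraries were Hist1h2ae, Hist1h4d, Hist1h2bc, Hist1h1c, Hist1h2ao and Hist1h1e. They held 42.1% to 42.5% of the member counts in AML, 66.7% to 71.9% in KO, 63.8% to 72.5% in NHD13 and 60.7% to 70.2% in WT. Most of the libraries behind this choice are not AML, so the lower share in AML partly follows from it. The share held by the leading members of AML itself was not computed. Deposited lengths exceed the RefSeq gene by over 1.5 times for 14 members, among them Hist1h1c, Hist1h1e, Hist1h4d and Hist1h4i, and FPKM understates these. Coding sequences within a class are near-identical, and the handling of reads that match several copies was not given in the sources used here. Levels of single members are therefore uncertain.

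Of the 58 members that RefSeq locates on GRCm38.p6, 50 lie on chromosome 13, 4 on chromosome 3, 3 on chromosome 11 and 1 on chromosome 6. On chromosome 13 they form a cluster at chr13:21715711-22043658 and another at chr13:23531044-23764412. Among members with an annotated start, an H2A and an H2B gene stand head to head in 8 places, with less than 250 bases between them. Hist1h2bc, next to Hist1h2ac, and Hist2h2be, next to Hist2h2ac, lack such a start and were left out of these pairs. The stretch between Hist1h2ae (chr13:23570663-23571220, minus strand) and Hist1h2bg (chr13:23571400-23571863, plus strand) is printed because these partners moved by unequal amounts in AML, and the same holds for Hist1h2ao (chr13:21810367-21810918, plus strand) and Hist1h2bq (chr13:21806412-21810199, minus strand). Both are from RefSeq, GRCm38.p6, 5′ to 3′ on the plus strand, at chr13:23571221-23571399 and chr13:21810200-21810366. Capitals mark the TATA box TATAAA, the CCAAT box (its name gives its letters) and the octamer ATTTGCAT, or the reverse complement of each.
Hist1h2ae and Hist1h2bg: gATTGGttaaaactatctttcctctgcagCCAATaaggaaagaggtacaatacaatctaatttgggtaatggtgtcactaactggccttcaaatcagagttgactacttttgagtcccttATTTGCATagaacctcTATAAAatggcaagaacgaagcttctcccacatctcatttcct
Hist1h2bq and Hist1h2ao: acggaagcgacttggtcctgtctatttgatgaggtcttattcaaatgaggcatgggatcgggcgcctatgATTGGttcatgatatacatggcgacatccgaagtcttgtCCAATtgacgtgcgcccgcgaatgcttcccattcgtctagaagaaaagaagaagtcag

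The 150 bases before the starts of 4 further genes are printed, also from RefSeq GRCm38.p6 and each 5′ to 3′ on the gene's own strand. Hist1h4d (chr13:23581418-23581567, plus strand) and Hist1h1e (chr13:23622559-23622708, minus strand) fell steeply in AML. Hist1h4i (chr13:22041363-22041512, minus strand) was not called between AML and KO, and Hist1h4k (chr13:21750554-21750703, minus strand) was higher in AML. Capitals mark the same motifs and, in Hist1h1e, the H1 box AAACACA. The marked TATAAA lies far from the start in Hist1h4i and near the start in Hist1h4d, Hist1h1e and Hist1h4k.
Hist1h4d: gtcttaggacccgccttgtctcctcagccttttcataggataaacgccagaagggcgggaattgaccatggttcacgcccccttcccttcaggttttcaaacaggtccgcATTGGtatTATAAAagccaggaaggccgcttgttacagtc
Hist1h1e: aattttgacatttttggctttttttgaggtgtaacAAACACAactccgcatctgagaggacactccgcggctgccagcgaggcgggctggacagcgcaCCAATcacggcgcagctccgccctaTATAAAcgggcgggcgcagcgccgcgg
Hist1h4i: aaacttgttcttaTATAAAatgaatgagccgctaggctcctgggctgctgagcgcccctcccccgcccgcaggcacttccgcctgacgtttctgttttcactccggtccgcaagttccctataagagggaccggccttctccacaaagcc
Hist1h4k: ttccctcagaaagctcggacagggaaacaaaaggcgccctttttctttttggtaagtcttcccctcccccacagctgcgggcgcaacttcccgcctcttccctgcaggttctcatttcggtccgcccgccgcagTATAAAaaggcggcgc
RefSeq gives a window of 250 bases before to 50 after the start for 51 members, and the motifs were searched there on both strands. The TATA box letters were in 31 of 51 member windows and in 14.2% of the windows of all 27025 promoters. The CCAAT box was in 43 of 51 against 37.9% of all, with 3 of 11 H4 members and all 40 of the other classes holding it. The octamer, bound by OCT1, was in 6 of 12 H2A and 4 of 14 H2B windows and in no other member's, against 1.75% of all. The H1 box was in 5 of 6 H1 windows, 7 of 51 overall and 7.14% of all promoters. The windows of head-to-head partners overlap, so a single site can be counted for both genes. A match of letters is a description and not a binding site.

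Between AML and KO, histone RNA fell in every class. By edgeR's quasi-likelihood test with Benjamini-Hochberg adjustment at 0.05 over 16233 genes, 47 of 56 members fell, 2 rose and 7 were not called, while 39.5% of all genes tested fell and 42.8% rose (82.4% in either direction). The median log2 fold change of the members was −2.23, against 0.07 for all genes. A fall of at least 4-fold was called for 31 of 56 members and for 12.5% of all genes. For 46 members the 3 AML libraries lay below all 9 others, as they did for 31.9% of all genes, and for 2 members they lay above all 9 others, as for 35.8% of all genes. The falls comprised 5 of 5 H1 members, 12 of 13 H2A, 13 of 16 H2B, 9 of 10 H3 and 8 of 12 H4, with class medians of −1.67, −3.66, −2.34, −1.94 and −1.17. The difference between classes was not tested. With an offset for gene length the median of the members shrank to −1.33, and 42 or more members fell under every alternative.

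**Figure D2:**
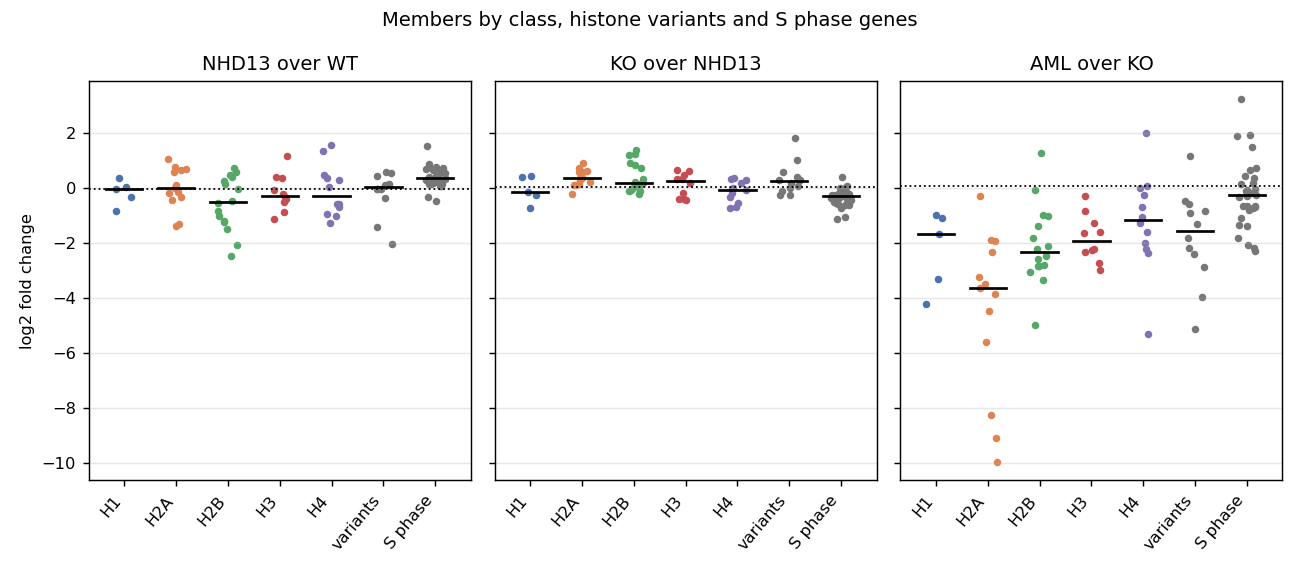
Log2 fold change of each member tested (points, by class), of histone variants and of S phase genes (y axis) in the 3 comparisons, with black bars at the median of each set and a dotted line at the median of all genes tested. The class medians lie between −1.17 and −3.66 for AML over KO, and between −0.53 and 0.34 in the other comparisons.

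The deepest falls were in H2A genes. Hist1h2ae had 0.733, 0.596 and 0.585 CPM in the AML libraries, against 218, 129.8 and 241 CPM in KO. Hist1h2ao had 0.172, 0.255 and 0.195 CPM in AML against 129.8, 87.2 and 127 in KO. These 2 genes led the family in KO by FPKM and were below 1 CPM in all 3 AML libraries. The log2 fold changes were −8.25 ± 1.02 for Hist1h2ae (SE, adjusted p = 6.01e-05, edgeR) and −9.07 ± 0.37 for Hist1h2ao (adjusted p = 1.52e-09), with no overlap between groups. Hist1h2ap had 1 count in all of AML and 1259 counts in KO, which is 1373-fold lower after scaling, with a counting interval of 246-fold to 54269-fold (95%, counting error only). Hist1h2ag had 0, 0.0426 and 0.117 CPM in AML against 3.27, 2.82 and 2.8 in KO (log2 −5.61), and Hist1h2ab 0.388, 0.511 and 0.273 against 9.7, 8.37 and 8.12 (log2 −4.47). Hist1h2ac, an H2A gene, fell less, to 4.14, 3.62 and 3.67 CPM in AML against 16.6, 14.4 and 13.3 in KO (log2 −1.95). Its human or mouse namesake is known to give polyadenylated RNA. Hist3h2a on chromosome 11 was not called, with 4.4, 3.83 and 4.21 CPM in AML and 5.64, 4.87 and 5.03 in KO (log2 −0.32, adjusted p = 0.0615), although the groups did not overlap.

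The H2B partners of Hist1h2ae and Hist1h2ao kept more of their RNA. Hist1h2bg had 3.19, 4.3 and 2.93 CPM in AML against 32.7, 35.3 and 38.1 in KO, a log2 fold change of −3.35 where its neighbour Hist1h2ae had −8.25. Hist1h2bq fell by 2.58 on the log2 scale where its neighbour Hist1h2ao fell by 9.07. Across the 8 head-to-head pairs with annotated starts, the H2A gene had the lower value in 6. The exceptions were Hist1h2ai with −2.34 beside Hist1h2bl with −2.79, and Hist1h2ad with −1.92 beside Hist1h2bf with −2.23. Of the neighbours left out for want of a start, Hist1h2ac had −1.95 beside Hist1h2bc with −2.83. Hist2h2ac had −3.66 beside Hist2h2be with 1.24. Hist1h2bc, the most abundant H2B gene, had 18.8, 18.1 and 17.7 CPM in AML against 133, 124 and 131 in KO (log2 −2.83 ± 0.07, adjusted p = 6.01e-17). Hist1h2bl had 0.215, 0.554 and 0.273 CPM in AML against 1.84, 2.25 and 3.18 in KO (log2 −2.79), and Hist1h2bk 2.15, 1.96 and 1.56 against 4.0, 3.39 and 3.99 (log2 −1.0). Hist3h2ba had 2 counts in AML and 69 in KO, 37.6-fold lower with a counting interval of 10.03-fold to 317-fold.

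Hist2h2be, an H2B gene on chromosome 3 (chr3:96221072-96223738) with a human or mouse namesake known to give polyadenylated RNA, rose. It had 10.6, 10.9 and 11.4 CPM in AML against 4.27, 4.11 and 5.51 in KO, 2.21, 2.88 and 2.42 in NHD13 and 5.3, 4.49 and 5.73 in WT. The 3 AML libraries were above all 9 others, and the log2 fold change against KO was 1.24 ± 0.15 (adjusted p = 2.46e-07, edgeR).

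Among H4 genes, the fall of the leading gene stood beside genes that were not called or rose. Hist1h4d had 3.1, 4.64 and 3.39 CPM in AML against 154, 116 and 167 in KO (log2 −5.29 ± 0.20, adjusted p = 8.34e-11). Hist1h4i had 24.3, 25.5 and 23.5 CPM in AML and 21.2, 23.2 and 25.9 in KO, overlapping ranges with a log2 fold change of 0.06 ± 0.12 (adjusted p = 0.66). Hist1h4k rose, with 2.84, 1.83 and 2.69 CPM in AML against 0.369, 0.533 and 0.949 in KO (log2 1.98 ± 0.34, adjusted p = 2.77e-05). All 3 genes encode histone H4. By FPKM, Hist1h4d was the leading H4 gene in KO at 119 against 29.9 for Hist1h4i, and in AML Hist1h4i led at 41.5 against 4.03 for Hist1h4d. Hist1h4f fell to 0.819, 0.852 and 0.702 CPM in AML against 1.95, 1.37 and 1.66 in KO (log2 −1.05), and Hist4h4 on chromosome 6 to 1.81, 1.62 and 0.975 against 3.53, 3.81 and 3.37 (log2 −1.29). Hist1h4j and Hist2h4 had log2 fold changes of −0.03 and −0.28 and were not called.

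All 5 H1 members and 9 of 10 H3 members fell, by unequal amounts. Hist1h1c, which makes linker histone H1.2, had 49.3, 48.9 and 49.1 CPM in AML against 105, 99.4 and 108 in KO (log2 −1.08 ± 0.07, adjusted p = 7.23e-11). Hist1h1e, for H1.4, fell more steeply, with 3.84, 4.9 and 3.39 CPM in AML against 77.8, 73.6 and 72 in KO (log2 −4.21), as did Hist1h1b, for H1.5, with 2.71, 3.53 and 2.46 against 26, 37.2 and 23.7 (log2 −3.33). In both the AML libraries lay below every other library. Hist1h3e had 2.97, 2.81 and 3.32 CPM in AML against 9.17, 8.9 and 10.1 in KO (log2 −1.63), Hist1h3i 1.29, 0.724 and 0.507 against 6.27, 5.9 and 7.78 (log2 −2.99) and Hist1h3g 2.07, 1.62 and 1.17 against 4.64, 4.79 and 5.74 (log2 −1.65). Hist1h1t, the testis linker histone, was not tested and had 0.345, 0.298 and 0.429 CPM in AML against 0.0527, 0 and 0 in KO.

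**Figure D3:**
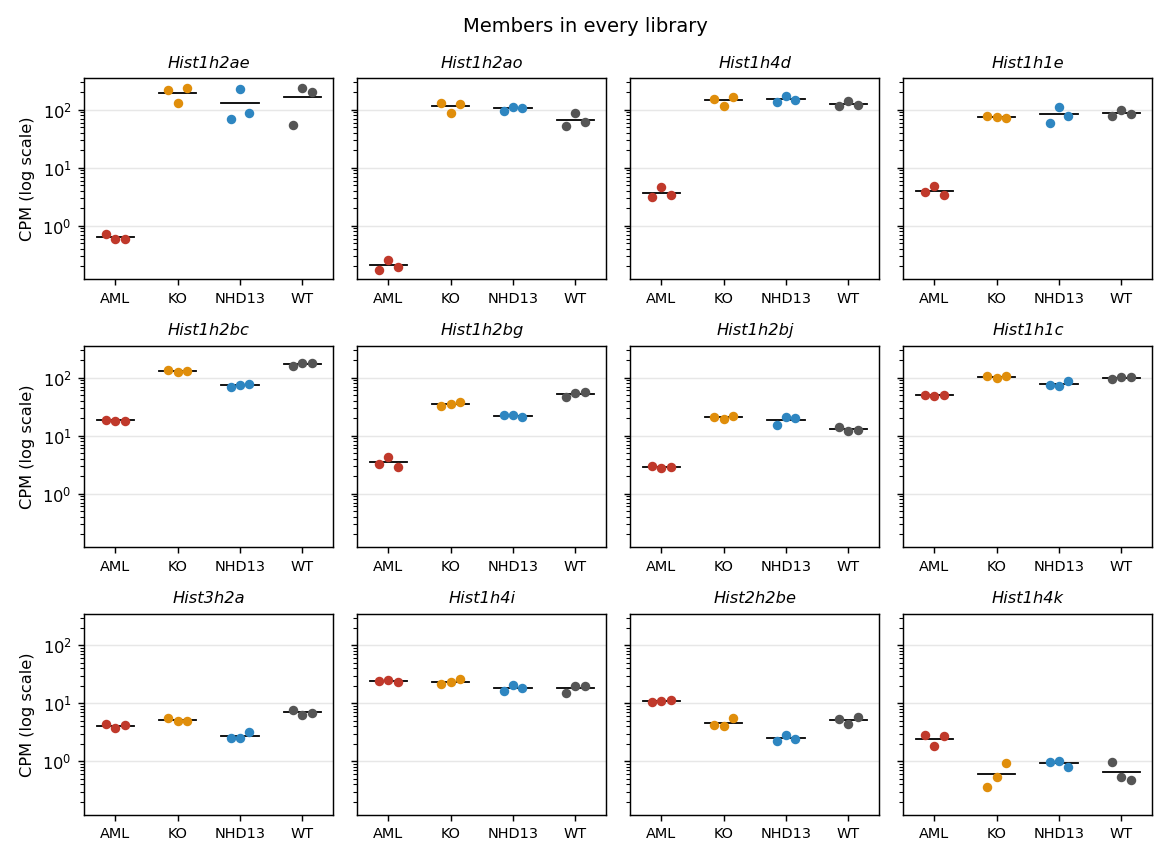
CPM on a log scale (y axis) of 12 members in the 3 libraries (points) of each group (x axis), with the group mean as a line. Hist1h2ae and Hist1h2ao drop below 1 CPM in AML, while the AML and KO ranges of Hist1h4i overlap and Hist2h2be and Hist1h4k are highest there.

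Gene length moved with the comparison. Of the members with a deposited length of up to 1000 bases, 36 of 40 fell (90%) with a median log2 fold change of −2.29, and of the other genes of that length 924 of 1770 fell (52.2%) with a median of −0.99. A fall of at least 4-fold was called for 25 of these 40 members and for 30.6% of the other short genes. Other genes over 4000 bases had a median of 0.67, and 25.9% of them fell. Members of 1000 to 2000 bases, 9 in number, had a median of −2.24 beside −0.97 for other genes of that length. The part of length in the fall of the members was not tested beyond the length offset.

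**Figure D4:**
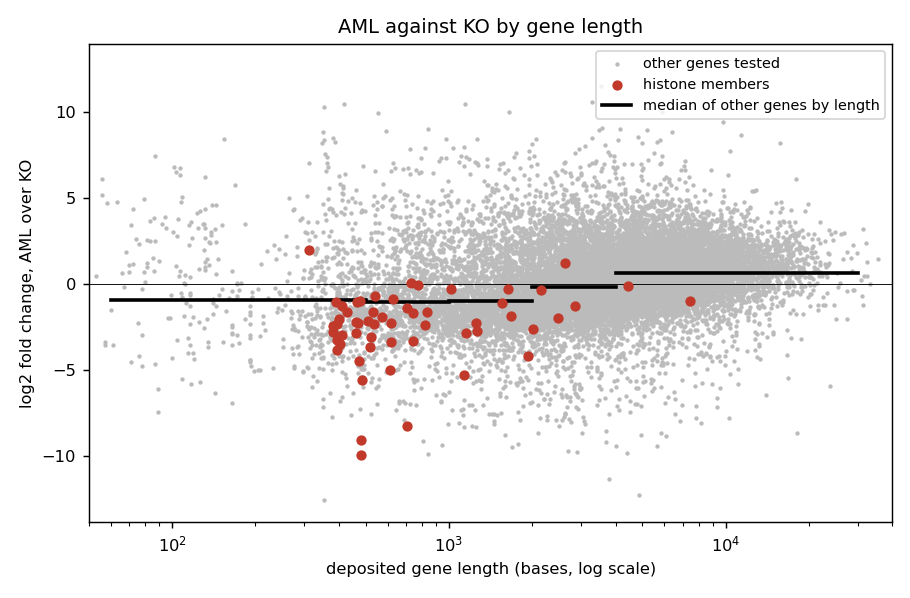
Log2 fold change of AML over KO (y axis) against deposited gene length in bases (x axis, log scale) for members (red) and other genes tested (grey), with black lines at the medians of other genes in 5 length ranges. Most members lie below the line of their length range, whose medians run from −1.03 to 0.67.

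Other RNAs without a stable tail were mixed. Of 35 small nuclear, small nucleolar and similar RNAs tested, 19 rose, 8 fell and 8 were not called between AML and KO, with a median of 1.0. Among those that fell, picked for naming after their values were seen, were the spliceosomal Rnu1a1 (log2 −2.86) and Rnu2-10 (log2 −4.55), the transcription regulator Rn7sk (log2 −3.54) and Snord118, the U8 small nucleolar RNA (log2 −3.37). Among those that rose were the small nucleolar RNAs Snord43 (log2 4.79), Snora31 (log2 1.97) and Snord104 (log2 1.10). Levels were low: all 180 such genes measured summed to 61.2 to 61.9 CPM in AML and 46.3 to 52.8 in KO. Small RNAs of this kind have many genomic copies, and their counts are uncertain. Of the 8 members whose human or mouse namesakes are known to give polyadenylated RNA, 6 fell, 1 rose and 1 was not called (median −1.19). Of the 48 remaining members 41 fell and 1 rose (median −2.25). Whether these members gave polyadenylated RNA in these cells was not measured.

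RNA of the genes listed as replication-independent histone variants was lower in AML too. The list takes their RNA as polyadenylated, which was not measured here. Of 12 tested, 11 fell and 1 rose, with a median log2 fold change of −1.57. H3f3b, for the variant H3.3, had 782 ± 17.4 CPM in AML against 5805 ± 264 in KO (mean ± SD, n = 3 each, log2 −2.89), and H2afz, for H2A.Z, 606 ± 34.9 against 2772 ± 130.1 (log2 −2.19). H3f3c, listed among the variants, had 0.57 ± 0.266 CPM in AML against 19.97 ± 1.53 in KO (log2 −5.12).

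Genes that make and process histone RNA did not move as a group. Of 26 tested for transcription and 3′ end formation, 15 rose and 8 fell in AML (median 0.36). Slbp fell to 73.3 ± 1.68 CPM in AML against 261 ± 5.4 in KO (log2 −1.83 ± 0.05, adjusted p = 2.8e-16), and Lsm10, of the U7 particle, to 10.8 ± 0.554 against 56 ± 2.37 (log2 −2.38). Sympk, for the cleavage scaffold symplekin, rose to 222 ± 10.4 CPM against 21 ± 3.06 (log2 3.40), and Srrt, for ARS2, to 301 ± 5.4 against 101 ± 4.08 (log2 1.58). Npat rose slightly to 27.4 ± 0.655 CPM in AML against 19.9 ± 1.58 in KO (log2 0.46), but had a log2 fold change of −0.19 with the length offset. Casp8ap2, for the NPAT partner FLASH, had 49.2 ± 3.14 CPM in AML and 53.5 ± 1.98 in KO (log2 −0.12, adjusted p = 0.138) and was higher in AML when scaled by library total (log2 0.29). Of 19 genes for histone RNA decay, 8 rose and 9 fell (median −0.17), among them Dhx9, an RNA helicase (log2 2.49), and Lsm2, of the ring that binds the shortened end (log2 −2.75). Of 22 histone chaperone genes, 10 rose and 10 fell (median 0.15). Both Asf1 genes, whose products bind H3 and H4, fell: Asf1a with log2 −2.63 and Asf1b with −2.09.

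Markers of dividing cells moved both ways in AML. The 5 proliferation markers summed to 821 to 837 CPM in AML and 793 to 821 CPM in KO, with 2 higher, Mki67 (log2 1.47) and Top2a (log2 0.64), and 3 lower, Ccnb1 (log2 −1.35), Cdk1 (log2 −1.32) and Aurkb (log2 −0.80). The 31 S phase genes summed to 4646 to 4792 CPM in AML and 5966 to 6324 in KO, with 9 higher, 16 lower and a median of −0.27. Tyms, for thymidylate synthase, fell by 2.07 and Dut, for dUTPase, by 2.29 on the log2 scale. The 8 erythroid markers summed to 25.4 to 25.9 CPM in AML and 575 to 589 CPM in KO, with none at 0 in either group. By call, 6 were lower in AML, 1 was higher and 1 was not called (median −3.61). The part of these cell markers in the fall of histone RNA was not tested.

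Between NHD13 and WT the members split by gene. Of 56 tested, 9 rose and 21 fell, where 25.3% and 28.7% of all genes did, so the share called in either direction (53.6%) was near the background of 54%. The median log2 fold change was −0.19 for the members and −0.04 for all genes. The number that rose was 4 with scaling by library total, which moves the median of all genes to −0.42. The sum over members was 923 ± 136 CPM in NHD13 and 1087 ± 153 CPM in WT (SD, n = 3 each), with overlapping libraries. The sums of H2B and H3 did not overlap between the groups. The H2B sum was 146, 156 and 160.4 CPM in the NHD13 libraries against 266, 296 and 304 in WT, and 9 of its 16 members fell and 2 rose. The H3 sum was 43, 43.7 and 51.6 CPM in NHD13 against 52.1, 56.5 and 63.3 in WT, a narrow gap, and 2 of its 10 members fell and 1 rose. H2A sums were 286 ± 98.2 CPM in NHD13 and 295 ± 119 CPM in WT, and H4 sums 205 ± 21.8 and 193 ± 16.6.

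The H2B genes that fell included the 2 with the highest FPKM. Hist1h2bc had 69.2, 73.6 and 78.4 CPM in NHD13 against 159, 178 and 180.5 in WT (log2 −1.23 ± 0.07, adjusted p = 1.6e-11, edgeR), and Hist1h2bg 22.6, 22.3 and 20.5 against 46.7, 53.3 and 56.5 (log2 −1.26 ± 0.10, adjusted p = 6.88e-09). In each the 3 NHD13 libraries were below the 3 WT libraries. Hist2h2be had 2.21, 2.88 and 2.42 CPM against 5.3, 4.49 and 5.73 (log2 −1.04), Hist1h2bl 0.756, 1.36 and 1.09 against 3.05, 2.41 and 3.68 (log2 −1.5) and Hist3h2ba 0.594, 0.315 and 0.297 against 1.82, 1.99 and 2.91 (log2 −2.47, the deepest fall of any member). Hist1h2bk went the other way without being called, with 4.37, 2.99 and 4.89 CPM in NHD13 and 2.94, 3.16 and 2.82 in WT (log2 0.46, adjusted p = 0.0562).

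Falls in other classes were found in Hist1h2ac, with 9.29, 9.86 and 10.5 CPM in NHD13 against 21.3, 26.6 and 29 in WT (log2 −1.37), in Hist3h2a, with 2.48, 2.52 and 3.26 against 7.7, 6.4 and 6.8 (log2 −1.33), and in Hist4h4, with 2.97, 2.88 and 3.71 against 6.53, 5.77 and 6.37 (log2 −0.96). Hist1h1c had 75.6, 70.9 and 87.6 CPM in NHD13 against 95.4, 101 and 104 in WT (log2 −0.36), and Hist1h3e 6.64, 7.81 and 8.06 against 13.3, 13.9 and 14.1 (log2 −0.87). Of the 8 members with namesakes known to give polyadenylated RNA, 7 fell and 1 was not called (median −1.13). Of the other 48 members 9 rose and 14 fell (median −0.05).

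The 9 risers comprised 4 H2A, 2 H2B, 2 H4 and 1 H3 gene. Hist1h2ab had 8.42, 11.6 and 10.2 CPM in NHD13 against 4.95, 7.19 and 6.03 in WT (log2 0.74), Hist1h2ag 2.11, 3.04 and 1.88 against 0.928, 1.08 and 1.37 (log2 1.06) and Hist1h2ao 96.5, 112 and 106 against 53.2, 88.2 and 61.7 (log2 0.63, adjusted p = 0.0173). Hist1h2ap also rose, with 11.2, 17.5 and 17.2 CPM against 8.12, 9.22 and 11.4 (log2 0.68), though 1 NHD13 library lay within the WT range. These are the H2A genes that rose. Hist1h4f had 3.02, 3.2 and 2.08 CPM in NHD13 against 0.735, 1.41 and 1.15 in WT (log2 1.33) and Hist1h3g 6.16, 6.97 and 7.32 against 2.2, 3.49 and 3.68 (log2 1.13). Hist1h4d with 138, 173 and 145 CPM in NHD13 and 114, 143 and 122 in WT, Hist1h4i with 16, 20.5 and 18.6 and 14.9, 20.3 and 19.7, Hist1h3i with 3.51, 3.67 and 5.83 and 5.45, 5.69 and 7.87, and Hist1h4k with 0.972, 0.996 and 0.791 and 0.967, 0.54 and 0.471 were not called.

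Some abundant members varied widely within a group. Hist1h2ae had 70.03, 229 and 88.9 CPM in NHD13 and 54, 239 and 204 in WT, so its libraries differed by over 3-fold within each group and it was not called (adjusted p = 0.657). Its coefficient of variation was 67.2% in NHD13, 59.3% in WT and 29.9% in KO. Hist1h1b likewise had 47, 30.04 and 66.8 CPM in NHD13 and 59.3, 25.8 and 28 in WT, and Hist1h1e 60.2, 112 and 78.8 and 79.3, 97.1 and 84. In WT the library lowest in Hist1h2ae was highest in Hist1h1b, and in NHD13 the library highest in Hist1h2ae was lowest in Hist1h1b. Among members of at least 10 CPM the median coefficient of variation was 3.51% in AML, 8.86% in KO, 12.3% in NHD13 and 10.3% in WT, against 3.51%, 5.39%, 7.0% and 7.53% over all genes of that level. These medians are over 4 members in AML, 14 in KO, 13 in NHD13 and 16 in WT, so they are not over the same genes.

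Most S phase genes rose in NHD13 against WT. Of 31, 20 rose and 2 fell (median 0.35), among them Rrm2, for ribonucleotide reductase, with 652 ± 0.908 CPM in NHD13 against 231 ± 7.25 in WT (log2 1.5), and Tk1, for thymidine kinase (log2 0.70). Slbp rose to 399 ± 7.54 CPM against 274 ± 7.46 (log2 0.54 ± 0.05, adjusted p = 3.97e-08), Ccne1, for cyclin E1, with log2 1.01, and Cdc25a, whose phosphatase activates CDK2, with 1.07. Npat (log2 −0.08) and Casp8ap2 (log2 −0.13) were not called. Of 26 genes for transcription and 3′ end formation 13 rose and 2 fell (median 0.21), of 19 decay genes 8 rose and 3 fell, and of 22 chaperone genes 10 rose and 4 fell, with Asf1b at log2 1.23. Among 12 variants 2 rose and 3 fell, with H2afy, for macroH2A1, at log2 −1.42 and H2afz at 0.56. Of 35 other untailed RNAs 1 rose and 10 fell (median −0.36). All 7 progenitor markers fell and all 8 neutrophil markers rose, and their part in these differences was not tested.

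Between KO and NHD13 fewer members were called, and more of them rose than fell. Of 56 tested, 12 rose, 2 fell and 42 were not called, where 20.6% and 20.3% of all genes rose and fell (40.9% in either direction). With the length offset 8 rose and 6 fell, and without the third KO library 8 rose and 0 fell. The median was 0.16 for the members and 0.02 for all genes. The share that rose, 21.4%, was near the background, and the share that fell, 3.57%, was below it. Summed members had 1087 ± 125 CPM in KO and 923 ± 136 CPM in NHD13 (SD, n = 3 each), with overlapping libraries. H2B sums did not overlap, at 229, 222 and 238 CPM in KO against 146, 156 and 160.4 in NHD13.

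The members that rose included abundant H2B genes. This comparison shares its NHD13 libraries with the one before, so the values of the 2 are given side by side and are not independent. Hist1h2bc had 133, 124 and 131 CPM in KO against 69.2, 73.6 and 78.4 in NHD13 (log2 0.81 ± 0.07, adjusted p = 1.03e-08, edgeR), and Hist1h2bg 32.7, 35.3 and 38.1 against 22.6, 22.3 and 20.5 (log2 0.70 ± 0.10, adjusted p = 2.63e-05). The largest rises were in Hist3h2ba, with 0.738, 1.07 and 1.28 CPM against 0.594, 0.315 and 0.297 (log2 1.36), and Hist1h2bl, with 1.84, 2.25 and 3.18 against 0.756, 1.36 and 1.09 (log2 1.18). Hist3h2a had 5.64, 4.87 and 5.03 CPM against 2.48, 2.52 and 3.26 (log2 0.90) and Hist2h2be 4.27, 4.11 and 5.51 against 2.21, 2.88 and 2.42 (log2 0.88). Hist1h1c rose to 105, 99.4 and 108 CPM against 75.6, 70.9 and 87.6 (log2 0.42). In each of these the KO and NHD13 libraries did not overlap. Hist1h2ac (log2 0.58), Hist1h3e (log2 0.32), Hist1h3i (log2 0.61) and Hist1h4i (log2 0.35) rose as well. Of the 8 members with namesakes known to give polyadenylated RNA 6 rose and 2 were not called (median 0.69), and of the other 48 members 6 rose and 2 fell (median 0.13).

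Hist1h4f was 1 of the 2 members that fell, with 1.95, 1.37 and 1.66 CPM in KO against 3.02, 3.2 and 2.08 in NHD13 (log2 −0.74, adjusted p = 0.0301), and Hist2h4 was the other (log2 −0.71, adjusted p = 0.0343). Neither call was firm: 0 members fell with upper-quartile scaling and 6 with the length offset. The leading H2A genes and Hist1h4d were not called, with log2 0.60 for Hist1h2ae, 0.13 for Hist1h2ao, 0.34 for Hist1h2ap, 0.34 for Hist1h2ag, −0.21 for Hist1h2ab and −0.06 for Hist1h4d. Hist1h3g (log2 −0.43), Hist1h2bk (log2 −0.11), Hist4h4 (log2 0.16), Hist1h1b (log2 −0.72) and Hist1h4k (log2 −0.57) were not called either.

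By edgeR, 21 of 31 S phase genes fell in KO against NHD13 (median −0.30), with Rrm2 at 297 ± 10.1 CPM in KO against 652 ± 0.908 in NHD13 (log2 −1.13) and Tk1 at log2 −0.75. Slbp fell to 261 ± 5.4 CPM against 399 ± 7.54 (log2 −0.61), Ccne1 by 0.85 on the log2 scale, Asf1b with log2 −1.18 and Casp8ap2 with −0.27, and Npat was not called (log2 −0.12). Of the transcription and 3′ end list 3 rose and 6 fell, of the decay list 3 and 4, of the chaperone list 4 and 6, and of the variants 5 and 1, with H2afy at log2 0.99. Of the 35 other untailed RNAs 4 rose and 1 fell. All 7 progenitor markers rose and all 8 neutrophil markers fell, and their part in these differences was not tested.

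Cytosolic ribosomal protein genes, which are short and polyadenylated, served as a further set for comparison. Of 84 tested, 21 rose and 40 fell in AML against KO (median −0.23), 51 rose and 2 fell in KO against NHD13 (median 0.34), and 4 rose and 7 fell in NHD13 against WT (median near 0). The nuclear RNAs Malat1 and Neat1 were kept apart from the other untailed RNAs. They summed to 1245 to 1461 CPM in AML, 845 to 1115 in KO, 791 to 830 in NHD13 and 1038 to 1297 in WT.

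H3K36me3 marks the bodies of transcribed genes, mostly long ones with introns. The deposited peak lists held 16902 peaks in the library labelled NHD13/Setd2 KO and 30953 in the library labelled NHD13, both from leukemia-stage cells. No peak overlapped any of the 58 located members in either list, by at least 1 bp. Of 1527 other protein-coding genes of up to 1000 bases, 1 (0.0655%) was overlapped in the list of NHD13/Setd2 KO and 20 (1.31%) in that of NHD13. There is 1 library per group, so no test was made.

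Some members had a deposited differentially methylated region over the gene or within 1000 bases. The authors' deposited table of AML against KO had such a region at 5 of 58 members, that of KO against NHD13 at 2 and that of NHD13 against WT at 7. Among genes of up to 1000 bases, the share with such a region was 7.69% of 52 members and 12% of 1527 other protein-coding genes for AML against KO, 1.92% and 2.82% for KO against NHD13, and 7.69% and 4.65% for NHD13 against WT. The widest was at Hist3h2ba (chr11:58948911-58949372), where the authors' deposited table gives a mean methylation of 0.831 in AML and 0.197 in KO over 1635 bases with 140 CpG sites. Past the 3′ end of Hist1h4m (chr13:21811746-21812150, plus strand), at chr13:21812891-21814455, the authors' deposited table gives 0.128 in AML and 0.476 in KO. That region spans 1565 bases with 127 CpG sites and does not overlap the gene. The RNA of this H4 gene fell by 2.0 on the log2 scale, and a link between the 2 was not tested. At Hist1h3i, the authors' deposited table gives 0.600 in AML and 0.250 in KO over 467 bases with 23 CpG sites. At Hist1h2bc, the authors' deposited table gives 0.268 in NHD13 and 0.585 in WT over 141 bases with 9 CpG sites. The leading genes Hist1h2ae, Hist1h2ao and Hist1h4d had no region in any of the 3 tables. Depth per site is unknown and there is 1 library per group, so these values have no error.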

How the data were processed

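RNA-seq was deposited for 12 libraries, H3K36me3 ChIP-seq for 2 and bisulfite sequencing for 4, grouped by their titles. Per the labels' protocols, RNA libraries were made with a NEBNext Ultra RNA kit. Per the submitters' processing notes, HISAT2 2.0.5, HTSeq 0.9.1 and mm10 were used, and use of strand in counting was not given in the sources used here. The authors deposited raw counts for 53946 genes and FPKM, which equal count divided by length and column total (largest relative difference 0). The peak lists the authors deposited give a score, fold enrichment and −log10 p and q values per peak, and peak positions were used, with fold enrichment only to keep peaks at or above the median in an alternative. The tables of differentially methylated regions the authors deposited give mean methylation as a fraction. The caller and coverage were not given in the sources used here. Sides were checked on 4032 and 2467 identical regions that share a library.

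Counts were tested with edgeR 4.0.16 in R 4.3.3: TMM factors, filterByExpr, which kept 16233 genes, and 1 model over the 12 libraries with 8 residual degrees of freedom. The test was the quasi-likelihood F test in its robust form, and p-values were adjusted after Benjamini and Hochberg over all genes tested, with calls at 0.05. The fit was tested on simulated data first. The SE is the log2 fold change divided by the square root of F. Alternatives used limma 3.58.1 on log2(FPKM + 0.1) or log2(FPKM + 1), DESeq2 1.42.0, other scalings, filters and a length offset. Nothing says that libraries of a group came from separate mice, and p-values then reflect just how far these libraries scatter, be that technical or not. Intervals of ratios are exact 95% intervals and cover counting error only. Coordinates, starts and promoters are RefSeq's, GRCm38.p6.

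Members and lists were chosen with earlier results of these data known. Members are named if they are the 2 of each class with the highest mean FPKM or the up to 4 that rose and fell most in a comparison (adjusted p below 0.05, a mean of 1 CPM or more on the higher side, no overlap of libraries). Also named are those with human or mouse namesakes known to give polyadenylated RNA. Of list genes, up to 4 called ones with the smallest p are named, with Slbp, Npat and Casp8ap2. Hist1h1e, Hist1h1t and other members outside this rule, the proliferation markers and the untailed RNAs named were chosen after their values were seen.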

Additional observations from a re-analysis of the deposited data

How the results depend on the processing

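The fall in AML kept its direction under every alternative run: 42 to 49 members fell, of 56 tested, or 59 with no filter on low counts and 54 with the minimum of 1 CPM in 3 libraries. The median log2 fold change of the members for AML against KO was −2.42 with upper-quartile factors, −1.82 by library total, −1.33 with the length offset, −1.74 on log2(FPKM + 0.1), −1.25 on log2(FPKM + 1) and −2.32 to −2.08 leaving out 1 library, and the number that rose was 4 with the length offset. For NHD13 against WT the number that rose was 4 by library total, 4 on log2(FPKM + 0.1) and 5 on log2(FPKM + 1), and the median was −0.57, −0.58 and −0.44 in these, and −0.055 with the length offset. For KO against NHD13, 22 rose on log2(FPKM + 1), 8 with the length offset and 8 to 13 leaving out 1 library, and 0 fell with upper-quartile factors, by library total and on both FPKM scales, 6 with the length offset and 0 to 1 leaving out 1 library; the median was 0.35 by library total, 0.045 with the length offset, and 0.34 and 0.29 on the FPKM scales. Library totals moved the median of all genes to 0.49, 0.21 and −0.42 in AML against KO, KO against NHD13 and NHD13 against WT, and the ratio of summed levels to 0.22 for AML over KO and 0.65 for NHD13 over WT. FPKM are also scaled by the column total without a TMM factor. On log2(FPKM + 0.1) the medians of all genes were 0.42, 0.17 and −0.36 in the same order of comparisons. The cause of the other shifts was not tested. Hist1h4i had −0.38, −0.37 and −0.36 for NHD13 against WT by library total and on the FPKM scales, Casp8ap2 0.29, 0.29 and 0.26 for AML against KO in the same settings, and Npat −0.19 with the length offset. Within gene bodies alone, members with a methylation region numbered 2 for AML against KO, 1 for KO against NHD13 and 3 for NHD13 against WT, and with a difference of at least 0.3, 3 and 3 for AML against KO and NHD13 against WT.

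Replicate numbers did not pair the libraries, since deviations of same-numbered libraries correlated by −0.088 to 0.109. With the replicate number as a block, 2 members rose and 47 fell for AML against KO, 12 and 2 for KO against NHD13, and 9 and 22 for NHD13 against WT. Members below 1 CPM in AML rest on few counts, which limits their fold changes.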
